A study of Homo sapiens with 16 samples.

Results

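ACSS1, ACSS2 and ACLY, which encode 3 enzymes that make acetyl-CoA, and MLXIPL, which encodes a transcription factor that responds to glucose, were examined as 4 of 19974 protein-coding genes. The 4 genes were chosen by how their peaks differed between the same vehicle and TGF-beta libraries described here, so their own values are descriptions and carry no test. Every peak of the 12 peak lists that overlapped a gene, or the 10 kb beyond either of its ends, was counted by target and treatment. The cells were H69, a transformed line of human bile duct epithelium, so the series rests on a single cell line. ChIP-seq, the sequencing of chromatin fragments pulled down by an antibody, covered SMAD3 and the histone acetylation marks H3K27ac and H3K9ac. For each target, 2 libraries came from cells given vehicle, whose composition the labels do not state, and 2 from cells given recombinant human TGF-beta at 10 ng/ml, all for 16 h. Libraries are numbered 4 and 5 for SMAD3 and 1 and 2 for the marks. The labels do not say whether these were separate cultures, so every spread given here may be technical. SMAD3 TGF-beta replicate 5 is labelled with a wider range of cell passages than the other 11 libraries, whose range is the same, and the part of passage in the SMAD3 values was not tested.

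Acetyl-CoA is the acetyl donor for histone acetylation, for fatty acid synthesis and for the citric acid cycle. ACLY cleaves exported citrate into acetyl-CoA in the cytosol and nucleus, ACSS2 makes it there from acetate, and ACSS1 makes it from acetate inside mitochondria. MLXIPL, also called ChREBP, pairs with MLX at carbohydrate response elements and drives glycolytic and lipogenic genes, ACLY among them, in liver. SMAD3 is phosphorylated by the activated TGF-beta receptor and carried to chromatin with SMAD4. H3K27ac marks active enhancers and promoters, and H3K9ac marks mainly active promoters.

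The peak lists hold no read counts, so depth is unknown and the length of sequence inside peaks stands for signal. In bulk chromatin, fewer cells with a peak and less signal per cell cannot be told apart. The lists held 22451 to 34413 SMAD3 peaks per library, 82259 to 92714 H3K27ac peaks and 54682 to 61297 H3K9ac peaks. SMAD3 peaks covered 11.2 and 14.5 Mb with vehicle and 19.7 and 19.6 Mb after TGF-beta, and the median gene shifted by 0.31 on the log2 scale, so log2 changes below are relative to the median gene of each library. For the 6 TGF-beta response genes used to check the treatment, SMAD3 length rose at 6, H3K27ac length at 4 and H3K9ac length at 5. Among all genes tested, 11.2%, 14.8% and 4.19% rose for these targets in that order, and 1.41%, 11.4% and 5.28% fell. TGFBI, a matrix protein gene, went from 0.526 and 0.913 kb of SMAD3 peaks to 38.2 and 29.4 kb (limma, adjusted p = 4.327e-05). The duct epithelial keratin gene KRT7 held 22030 and 23346 bp of H3K27ac peaks with vehicle and 21965 and 22373 bp after TGF-beta, while the biliary markers CFTR and SPP1 were listed at 0 in every library. Of the 8 cholangiocyte markers, 4 were measured for H3K27ac, of which 1 rose and 2 fell, the latter being KRT19 and SOX9. The 8 hepatocyte markers together held 16.6 to 19.2 kb of H3K27ac peaks with vehicle and 16.2 to 17.4 kb after TGF-beta, with ALB and TTR at 0 in all libraries. Of the 5 measured, HNF4A and CYP3A4 rose and APOB and TF fell. The 8 fibroblast and endothelial markers held 34.7 to 35.0 kb with vehicle and 43.6 to 45.4 kb after TGF-beta, with DCN at 0 and THY1, CDH5 and PDGFRB higher among 6 measured. The 8 leukocyte markers held 20.4 to 22.8 kb and 20.0 to 20.4 kb, with SPI1 higher and PTPRC lower among 7 measured. What part these marker differences have in the values of the 4 genes was not tested.

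The sequences just upstream of the start sites are shown because the SMAD3 peak at the ACSS1 start site shrank or was absent after TGF-beta, while those at ACSS2 and ACLY were called at similar length. Each run is the 250 bases before a RefSeq start site (GRCh38.p14), 5′ to 3′ along the gene. Where a gene has more than 1 start site, the one with the most SMAD3 length within 1 kb is shown and taken as 0 for distances. Capitals mark SMAD boxes (CAGAC or its complement GTCTG) and GC boxes (GGGCGG or its complement CCGCCC), the latter a motif of promoters bound by SP1. The windows are chr20:25058140-25058389 on the minus strand for ACSS1, chr20:34876362-34876611 on the plus strand for ACSS2, chr17:41919023-41919272 on the minus strand for ACLY and chr7:73624523-73624772 on the minus strand for MLXIPL.
ACSS1: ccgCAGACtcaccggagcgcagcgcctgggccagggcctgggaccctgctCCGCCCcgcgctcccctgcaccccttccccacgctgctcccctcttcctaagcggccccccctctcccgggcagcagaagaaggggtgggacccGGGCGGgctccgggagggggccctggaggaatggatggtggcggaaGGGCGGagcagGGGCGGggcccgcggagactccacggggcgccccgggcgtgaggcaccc
ACSS2: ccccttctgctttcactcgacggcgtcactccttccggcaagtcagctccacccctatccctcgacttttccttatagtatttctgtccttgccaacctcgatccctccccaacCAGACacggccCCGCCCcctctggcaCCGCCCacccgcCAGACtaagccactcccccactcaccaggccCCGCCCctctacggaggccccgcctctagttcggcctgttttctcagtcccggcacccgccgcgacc
ACLY: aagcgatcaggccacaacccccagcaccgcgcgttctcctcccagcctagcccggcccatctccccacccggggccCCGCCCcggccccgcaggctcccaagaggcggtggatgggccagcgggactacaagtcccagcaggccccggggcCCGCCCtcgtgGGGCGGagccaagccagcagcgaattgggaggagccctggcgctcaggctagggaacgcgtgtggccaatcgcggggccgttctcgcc
MLXIPL: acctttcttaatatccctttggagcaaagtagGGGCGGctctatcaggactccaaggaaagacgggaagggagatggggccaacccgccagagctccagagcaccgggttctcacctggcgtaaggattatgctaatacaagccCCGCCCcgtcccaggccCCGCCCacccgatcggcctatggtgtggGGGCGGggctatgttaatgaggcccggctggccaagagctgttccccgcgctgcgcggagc

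The ACSS1 run holds 1 SMAD box, at 247 bases before the start site, and 4 GC boxes. The ACSS2 run holds 2 SMAD boxes, at 136 and 98 bases before the start site, and 3 GC boxes. The ACLY run holds 3 GC boxes and the MLXIPL run 4, and neither has a match to CAGAC or GTCTG. Such matches are common: 37.3% of 22156 upstream windows of the same length hold a SMAD box and 53.7% a GC box. None of the 4 runs has the E-box CACGTG, found in 7.37% of windows, the AP-1 motif TGANTCA, found in 5.36%, or the palindrome GTCTAGAC, found in 0.208%. The GC-rich SMAD motif GGCGC or GCGCC, found in 55.1%, has 3 matches in the ACSS1 run and 1 in the ACLY run. All motifs were searched on both strands. SMAD3 peaks covered all 250 bases of the ACSS1 run in both vehicle libraries, and 0 and 3 bases after TGF-beta. At the ACSS2 run they covered 70 and 117 bases with vehicle and 119 and 109 after TGF-beta, and at the ACLY run 113 and 250 bases with vehicle and 250 and 168 after TGF-beta. At the MLXIPL run they covered 89 and 95 bases with vehicle and 19 and 42 after TGF-beta. Across all windows, the share with a SMAD3 peak was 49.5% and 52.5% with vehicle and 54.1% and 55.2% after TGF-beta.

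Length inside peaks was lower in both TGF-beta libraries than in both vehicle libraries for all 3 targets at ACSS1 and MLXIPL, for the 2 marks at ACSS2, and for no target at ACLY. Among all genes tested, such non-overlap downward was found for 1.81% in SMAD3, 20.9% in H3K27ac and 40.9% in H3K9ac, a share that makes the H3K9ac ordering common. Since the genes were chosen on these contrasts, nothing is read from these counts. All 4 genes passed the filter of a mean of 500 bp for every target. For SMAD3, ACSS1 averaged 1.54 kb with vehicle and 0.254 kb after TGF-beta, so its pass rests on the vehicle libraries.

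**Figure D1:**
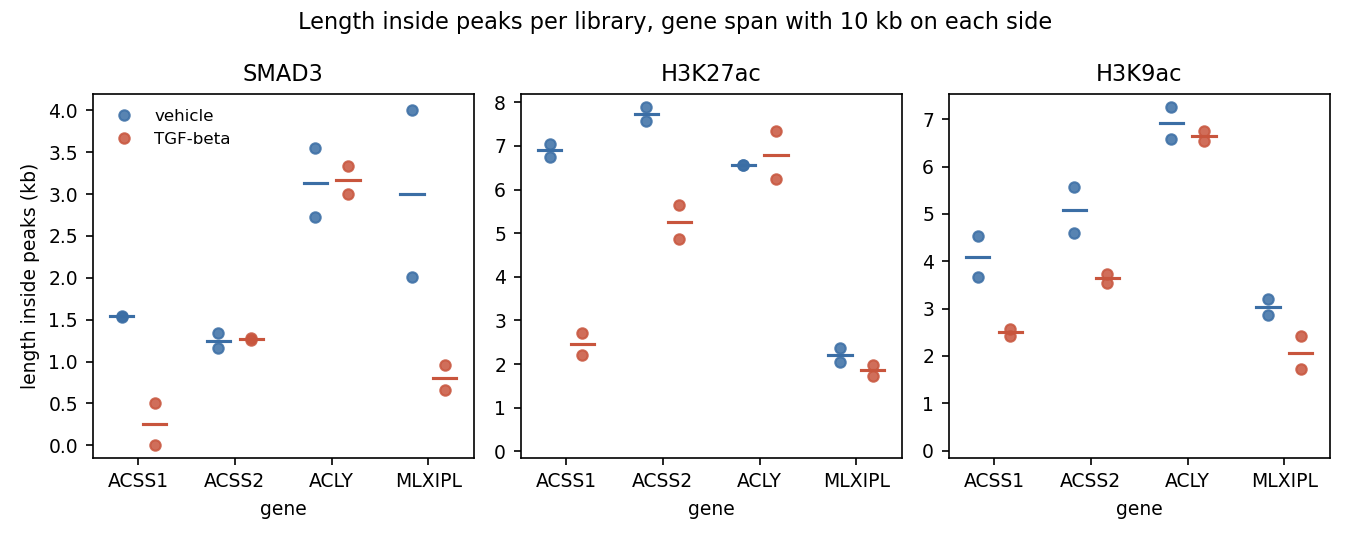
Length inside peaks (kb, vertical axis) at each of the 4 genes (horizontal axis) with 10 kb on each side, in 3 panels for SMAD3, H3K27ac and H3K9ac. Points are single libraries, blue for vehicle and red for TGF-beta, and bars are the means of 2 libraries. TGF-beta points lie below vehicle points at ACSS1 and MLXIPL in every panel and overlap them at ACLY in every panel.

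ACSS1, the mitochondrial acetate enzyme (chr20:25006237-25058139), had less SMAD3, H3K27ac and H3K9ac peak length after TGF-beta, with the largest step in H3K27ac of the 4 genes. SMAD3 peaks covered 1.55 and 1.53 kb in vehicle replicates 4 and 5, and 0 and 0.508 kb in TGF-beta replicates 4 and 5. The vehicle libraries were nearly equal and the TGF-beta libraries were both lower, with a log2 change of -1.83 ± 0.274 (limma's moderated SE, n = 2 libraries per group). This SE, used after ± for every log2 change here, draws on the spread of all genes tested. It is not the spread of these libraries alone. H3K27ac peaks covered 6.76 and 7.05 kb with vehicle and 2.72 and 2.20 kb after TGF-beta, a log2 change of -1.41 ± 0.0940. H3K9ac peaks covered 4.53 and 3.67 kb with vehicle and 2.42 and 2.58 kb after TGF-beta, a log2 change of -0.52 ± 0.0846. These changes are on the scale of log2 of the length plus 500 bp, which understates changes of short lengths: with 100 bp added in its place the SMAD3 change was -3.13, and with 2000 bp it was -0.83. Without TGF-beta replicate 4 the SMAD3 change was -1.34, and without TGF-beta replicate 5 it was -2.31. No other protein-coding gene lies in the ACSS1 window.

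At ACSS1, SMAD3 was called at 2 places. The first spans the start site (chr20:25057277-25058586) and held 1264 and 1310 bp of peaks with vehicle, 0 in TGF-beta replicate 4 and 508 bp in TGF-beta replicate 5. In the vehicle libraries its highest peak scored above 70.3% and 65.7% of all SMAD3 peaks of the same library, and in TGF-beta replicate 5 above 51.1%. The second, 17.8 kb downstream of the start site within the gene (chr20:25040180-25040492), held 285 and 219 bp with vehicle and none after TGF-beta. Its scores ranked low, above 22.0% and 35.4% of peaks. This small SMAD3 region lies inside the broadest acetylated region of the gene (chr20:25038275-25041786), where H3K27ac covered 3034 and 3235 bp with vehicle and 1528 and 1331 bp after TGF-beta. That region ranked among the highest-scoring H3K27ac peaks with vehicle, above 98.2% and 97.4% of peaks, and above 73.5% and 77.5% after TGF-beta. Ranks are the authors' scores within each list and show no change by themselves.

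H3K27ac at ACSS1 was also called in both vehicle libraries and in neither TGF-beta library at 3 further regions, here termed lost. They are chr20:25016930-25017475 and chr20:25017644-25018538, which lie 40.9 and 40.1 kb downstream of the start site inside the gene, and chr20:25000069-25000566, which lies 57.8 kb downstream, beyond the gene end. The start site nearest to this last region is that of APMAP, 7318 bp away. At the start site (chr20:25056843-25058640) H3K27ac was called in all libraries but shorter after TGF-beta, with 1601 and 1680 bp against 871 and 873 bp. H3K9ac there (chr20:25056549-25059092) changed less in length, from 2529 and 2544 bp to 2076 and 2124 bp. Inside the broad H3K27ac region, H3K9ac at chr20:25040185-25041086 covered 902 and 844 bp with vehicle and 179 and 254 bp after TGF-beta. Split by place, H3K27ac within 1 kb of an ACSS1 start site covered 1.502 and 1.401 kb with vehicle and 0.871 and 0.873 kb after TGF-beta. Elsewhere in the window it covered 5.25 and 5.65 kb with vehicle and 1.85 and 1.33 kb after TGF-beta. Most of the H3K27ac length absent after TGF-beta was therefore away from the start site. The annotation used gives no exons, so exon or intron is not stated for any region.

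**Figure D2:**
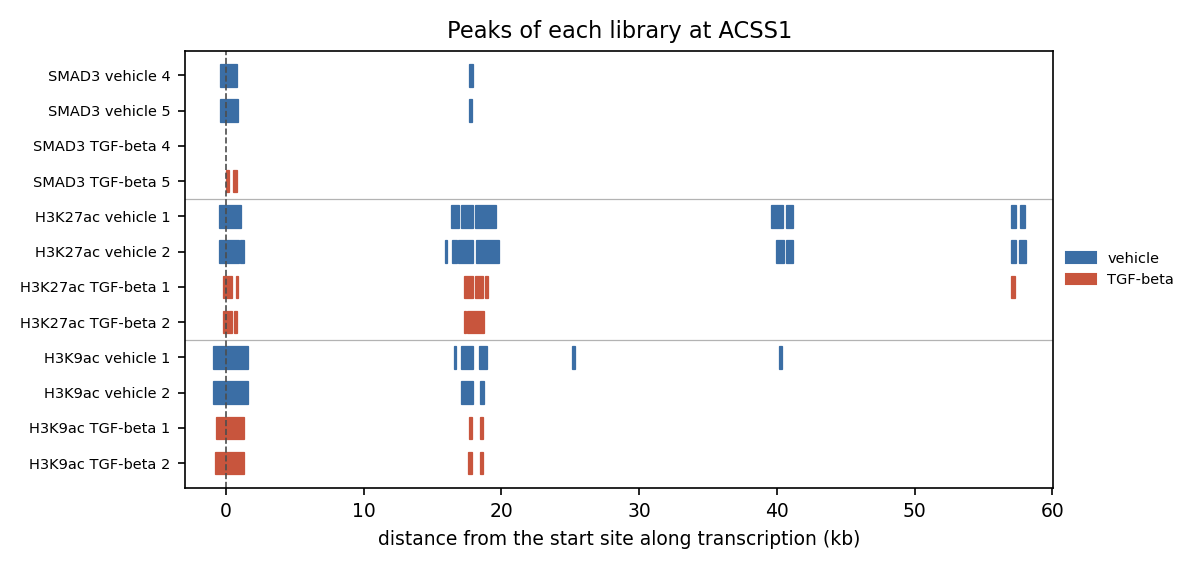
Peaks at ACSS1 in each of the 12 libraries (rows, named by target, treatment and replicate), with distance from the start site along transcription in kb on the horizontal axis. Blue bars are vehicle and red bars TGF-beta peaks, and the dashed line is the start site. The SMAD3 row of TGF-beta replicate 4 is empty, and the H3K27ac bars about 40 kb downstream appear only in the vehicle rows.

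ACSS2, the cytosolic and nuclear acetate enzyme (chr20:34874989-34927959), kept both of its SMAD3 regions. The one upstream, at the start of GGT7 (chr20:34872508-34873300), was shorter, with 728 and 638 bp with vehicle and 439 and 600 bp after TGF-beta. Over the whole ACSS2 window SMAD3 covered 1.16 and 1.34 kb with vehicle and 1.25 and 1.28 kb after TGF-beta, and the groups overlapped. The log2 change was -0.29 relative to the median gene and 0.02 without that centring, so its sign depends on the scaling. H3K27ac covered 7.89 and 7.57 kb with vehicle and 5.64 and 4.86 kb after TGF-beta, a log2 change of -0.61 ± 0.0912. H3K9ac covered 5.57 and 4.60 kb with vehicle and 3.55 and 3.73 kb after TGF-beta, a log2 change of -0.34 ± 0.0831. For both marks the TGF-beta libraries were below the vehicle libraries.

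The SMAD3 region at the second ACSS2 start site (chr20:34876493-34877306), which overlaps the printed run, was called in all 4 libraries with 430 and 697 bp with vehicle and 814 and 684 bp after TGF-beta. Its scores were above 86.4% to 89.8% of SMAD3 peaks in every library. H3K27ac over the same start site (chr20:34876580-34877408) was likewise called in all libraries, at 829 and 787 bp with vehicle and 769 and 802 bp after TGF-beta. Within 1 kb of the 2 ACSS2 start sites, H3K27ac covered 2.77 and 2.87 kb with vehicle and 2.70 and 2.69 kb after TGF-beta, so the groups lay close without overlapping. Elsewhere in the window it covered 5.12 and 4.70 kb with vehicle and 2.93 and 2.17 kb after TGF-beta. Several of the shorter regions lie far inside the gene, though a flanking one upstream of it near the start of GGT7 (chr20:34873016-34873519) was also shorter, at 491 and 329 bp with vehicle and 307 and 247 bp after TGF-beta. At chr20:34921180-34922743, 45.4 kb downstream of the start site, H3K27ac covered 1564 and 1219 bp with vehicle and 738 and 340 bp after TGF-beta. At chr20:34922938-34924223 it covered 1094 and 1133 bp with vehicle and 672 and 486 bp after TGF-beta, and a small H3K9ac region inside it (chr20:34923206-34923416) was lost. At chr20:34907181-34907579 both TGF-beta libraries lacked the H3K27ac peaks of 275 and 374 bp called with vehicle. H3K9ac at the upstream start site (chr20:34874657-34876079) covered 1348 and 1010 bp with vehicle and 683 and 528 bp after TGF-beta.

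The gene downstream of ACSS2 is GSS, which encodes glutathione synthetase (chr20:34928432-34956027), and its window takes in the ACSS2 regions at chr20:34921180-34922743 and chr20:34922938-34924223 but not that at chr20:34907181-34907579. GSS held 4.61 and 5.01 kb of H3K27ac peaks with vehicle and 3.15 and 2.49 kb after TGF-beta. GGT7, upstream, which belongs to the gamma-glutamyltransferase family, held 3.88 and 3.70 kb with vehicle and 3.45 and 3.36 kb after TGF-beta. As these windows share peaks with that of ACSS2, they give no separate evidence. Peak length cannot assign the shared regions to ACSS2 or to GSS.

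ACLY, the citrate-cleaving enzyme (chr17:41866917-41930545), showed no separation of the treatments for any target. SMAD3 covered 2.72 and 3.55 kb with vehicle and 3.333 and 2.999 kb after TGF-beta. H3K27ac covered 6.56 and 6.57 kb with vehicle and 7.34 and 6.25 kb after TGF-beta. H3K9ac covered 7.27 and 6.58 kb with vehicle and 6.55 and 6.75 kb after TGF-beta. In each case the TGF-beta libraries overlapped the range of the vehicle libraries. The log2 changes were -0.29 ± 0.127 for SMAD3, which became 0.02 without centring, -0.04 ± 0.0898 for H3K27ac and 0.04 ± 0.0755 for H3K9ac. Without centring these became 0.04 for H3K27ac and -0.05 for H3K9ac, so no sign is read for ACLY. Overlap of 2 libraries against 2 does not show that ACLY did not change.

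Within the ACLY window, the SMAD3 region over the start sites (chr17:41918124-41919969) was called in all libraries at 1306 and 1816 bp with vehicle and 1339 and 1450 bp after TGF-beta, above 87.1% to 91.8% of SMAD3 peaks. H3K27ac flanked it as a pair of regions called in all libraries. The downstream one (chr17:41917164-41919016) covered 1707 and 1637 bp with vehicle and 1804 and 1826 bp after TGF-beta. The upstream one (chr17:41919225-41921249) covered 1675 and 1864 bp with vehicle and 1941 and 1568 bp after TGF-beta. No ACLY region was lost for any target. A short H3K27ac region (chr17:41916816-41917110) and a short H3K9ac region (chr17:41915834-41916166) were called only after TGF-beta, in both libraries, with scores above at most 33.9% and 3.6% of peaks. Regions in the downstream flank lie at or near the start site of KLHL11. The SMAD3 region chr17:41930028-41930777 covers the upstream end of the ACLY span and the adjoining end of ODAD4 (chr17:41930617-41966503). Peak length cannot assign such regions to either gene. ODAD4, a gene of motile cilia that lies upstream of ACLY, held 1.58 and 2.18 kb of SMAD3 peaks with vehicle and 4.45 and 4.08 kb after TGF-beta, in a window that overlaps that of ACLY.

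**Figure D3:**
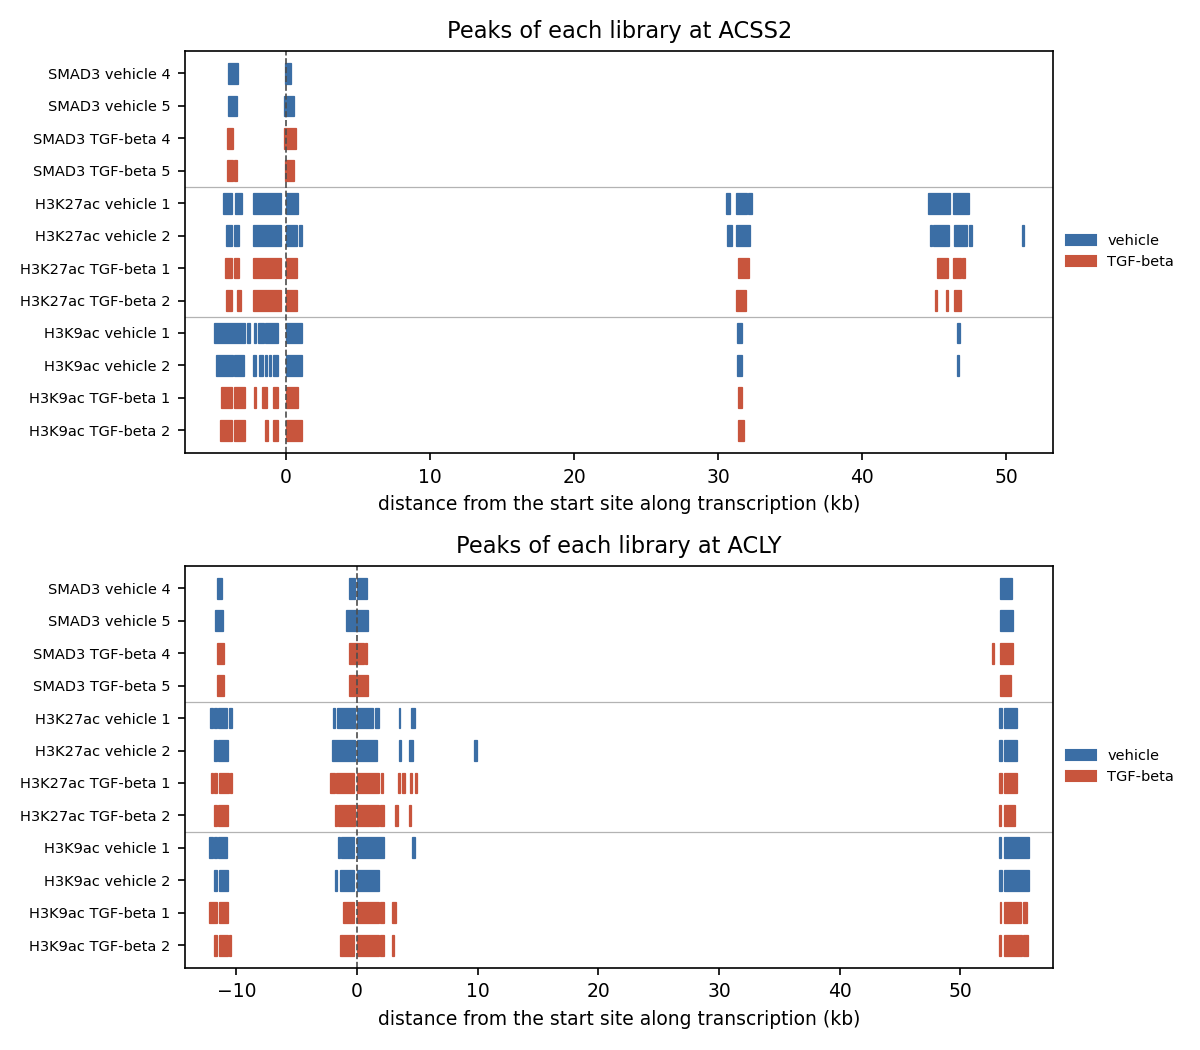
Peaks at ACSS2 (top) and ACLY (bottom) in each of the 12 libraries (rows), with distance from the start site along transcription in kb on the horizontal axis, blue for vehicle and red for TGF-beta. SMAD3 bars stand at the dashed start site in every row of both genes. The ACSS2 H3K27ac bars about 45 kb downstream are shorter in the TGF-beta rows, and the ACLY bars are alike in both.

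MLXIPL, the glucose-responsive factor (chr7:73593202-73647907), had a SMAD3 decrease that overlapped that of ACSS1 within limma's moderated SE, with smaller steps in the marks. SMAD3 covered 2.004 and 4.001 kb in vehicle replicates 4 and 5 and 0.661 and 0.953 kb after TGF-beta, a log2 change of -1.68 ± 0.209. Vehicle replicate 5 had about 2 kb more than vehicle replicate 4, yet both lay above the TGF-beta libraries. Without vehicle replicate 5 the change was -1.35, and without vehicle replicate 4 it was -1.99. In the gene span alone it was -2.14, and with 2000 bp added before the logarithm it was -0.97. H3K27ac covered 2.04 and 2.37 kb with vehicle and 1.73 and 1.99 kb after TGF-beta, a log2 change of -0.28 ± 0.0947. H3K9ac covered 3.21 and 2.86 kb with vehicle and 1.73 and 2.41 kb after TGF-beta, a log2 change of -0.38 ± 0.0986. No other protein-coding gene lies in this window.

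The SMAD3 length that MLXIPL lost was mostly inside the gene and not at the start site. Regions chr7:73599500-73600136, chr7:73600685-73601553 and chr7:73602661-73603203, at 24.7, 23.4 and 21.6 kb downstream of the start site, were called in both vehicle libraries and in neither TGF-beta library. Together with 3 regions between or beside them that were called only in vehicle replicate 5, they form a cluster of short peaks. Their scores ranked low, above 5.6% to 39.6% of SMAD3 peaks of their library for the 3 lost regions. No H3K27ac or H3K9ac peak overlapped this cluster in any library. The 2 lost regions farthest downstream lie 20921 and 22106 bp from the start site of TBL2, nearer than that of MLXIPL. At the start site (chr7:73624183-73624617) SMAD3 was called in all 4 libraries, with 429 and 402 bp with vehicle and 260 and 361 bp after TGF-beta. Beyond the gene end, a SMAD3 region of 161 and 244 bp (chr7:73587865-73588108) was called only after TGF-beta, 9286 bp from the start site of TBL2. At the upstream end of the annotated span, a SMAD3 region (chr7:73647905-73648256) was called in all 4 libraries. It held 154 and 159 bp with vehicle and 240 and 348 bp after TGF-beta.

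H3K27ac at MLXIPL went in opposite directions by place. Just inside the start site (chr7:73623352-73624515) it covered 1131 and 1062 bp with vehicle, 0 in TGF-beta replicate 1 and 348 bp in TGF-beta replicate 2. A region 1.75 kb downstream (chr7:73622566-73622970) was lost. Regions 15.7 kb downstream (chr7:73608620-73609034) and 11.7 kb upstream (chr7:73636009-73636380) of the start site were called only after TGF-beta. Both lie inside the annotated gene span, which extends upstream of this start site to chr7:73647907. Within 1 kb of the start site H3K27ac covered 0.975 and 0.892 kb with vehicle and 0 and 0.348 kb after TGF-beta, whereas elsewhere it covered 1.06 and 1.48 kb with vehicle and 1.73 and 1.64 kb after TGF-beta. H3K9ac within 1 kb of the same start site was nearly equal, at 1.04 and 1.03 kb with vehicle and 1.02 and 1.03 kb after TGF-beta. The whole H3K9ac region there (chr7:73622542-73624564) was shorter, covering 1946 and 1875 bp with vehicle and 1197 and 1468 bp after TGF-beta. At the upstream end of the span, H3K9ac (chr7:73647697-73648814) covered 1091 and 841 bp with vehicle and 536 and 793 bp after TGF-beta. The H3K27ac value over the whole window thus sums differences of opposite sign.

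**Figure D4:**
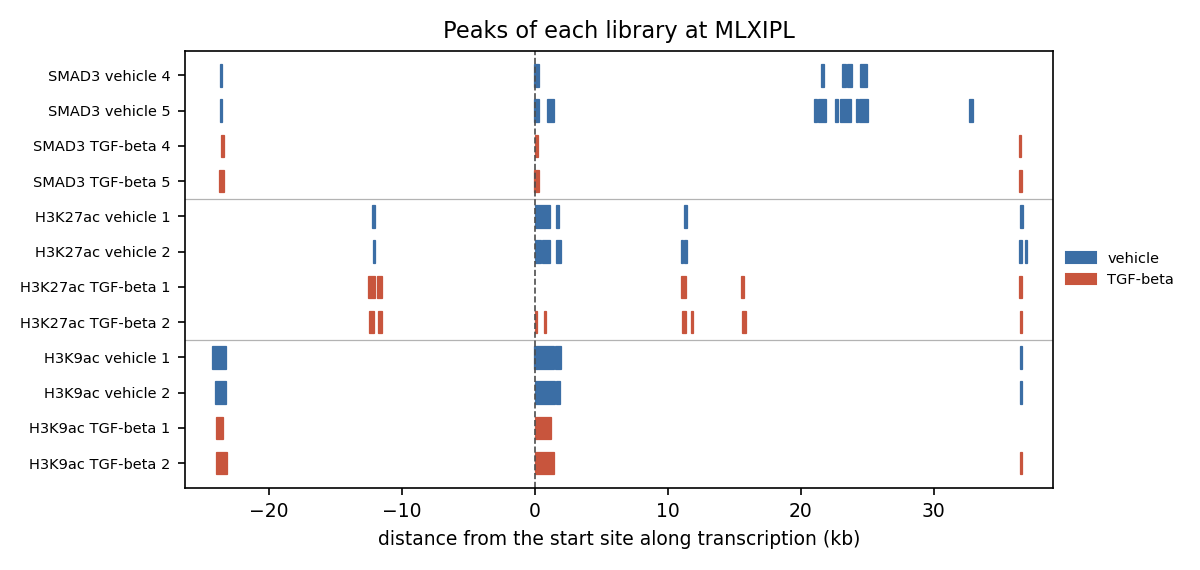
Peaks at MLXIPL in each of the 12 libraries (rows), with distance from the start site along transcription in kb on the horizontal axis, blue for vehicle and red for TGF-beta. The SMAD3 bars 21.6 to 24.7 kb downstream appear only in the vehicle rows. The H3K27ac bars 11.7 kb upstream of the start site, still inside the gene span, appear only in the TGF-beta rows.

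Counted over the 4 genes, 4 of 19 SMAD3 regions were lost and 1 was gained, against 0.669% lost and 13.7% gained among all SMAD3 regions. Of 38 H3K27ac regions, 5 were lost and 3 gained, against 4.72% and 12% among all regions. Of 26 H3K9ac regions, 1 was lost and 1 gained, against 6.15% and 5.15%. The regions entered the choice of the genes, so these shares are printed for scale only. The lost SMAD3 regions were 1 at ACSS1 and 3 at MLXIPL, and the lost H3K27ac regions 3 at ACSS1, 1 at ACSS2 and 1 at MLXIPL. The SMAD3 regions of ACSS1 and ACSS2 all overlapped H3K27ac regions, as did 3 of 4 at ACLY, while at MLXIPL 3 of 11 did. A stricter count took a region as called only in libraries covering at least 50% of it. ACSS1 then had 2 lost SMAD3 regions and 5 lost H3K27ac regions, with none gained, and MLXIPL had 2 and 2 lost. Under the same count MLXIPL had 2 gained SMAD3 regions and 3 gained H3K27ac regions. With only peaks scoring at least 5, MLXIPL had 2 lost SMAD3 regions and 1 gained.

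The genes also differed in how much of their window lay inside peaks. With vehicle, SMAD3 peaks covered 4.02% ± 1.89 of the MLXIPL window (SD, n = 2 libraries, as for the other values here), 3.75% ± 0.698 of the ACLY window, 2.14% ± 0.0197 of the ACSS1 window and 1.71% ± 0.172 of the ACSS2 window. MLXIPL and ACLY overlapped and the other neighbours in this order did not. After TGF-beta the order was ACLY at 3.79% ± 0.282, ACSS2 at 1.74% ± 0.0300, MLXIPL at 1.08% ± 0.276 and ACSS1 at 0.353% ± 0.4996, with no overlap between neighbours. H3K27ac with vehicle covered 10.6% ± 0.312 of the ACSS2 window, 9.60% ± 0.288 at ACSS1, 7.85% ± 0.0127 at ACLY and 2.95% ± 0.312 at MLXIPL, again with no overlap. After TGF-beta ACLY at 8.12% ± 0.921 and ACSS2 at 7.19% ± 0.748 overlapped, and ACSS1 at 3.42% ± 0.504 and MLXIPL at 2.49% ± 0.250 followed. For H3K9ac the order was ACLY, ACSS2, ACSS1 and MLXIPL under both treatments, from 8.28% ± 0.577 to 4.06% ± 0.328 with vehicle and from 7.95% ± 0.17 to 2.78% ± 0.645 after TGF-beta. ACSS2 and ACSS1 nearly touched with vehicle, their nearest libraries both being at 6.30%.

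The deposited peak lists carry a tag, L7 or L8, that was taken here as the sequencing lane. By this tag the TGF-beta replicate 2 libraries of both marks were on lane 8 and the other mark libraries on lane 7. All SMAD3 libraries were on lane 8. With lane 7 alone, the H3K27ac log2 changes were -1.30 at ACSS1, -0.52 at ACSS2, 0.05 at ACLY and -0.38 at MLXIPL. The H3K9ac changes were -0.50, -0.31, 0.08 and -0.51 in the same order. The changes at ACSS1, ACSS2 and MLXIPL were negative in this comparison. It sets TGF-beta replicate 1 alone against 2 vehicle libraries, and the part of the lane in the values was not tested.

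Related genes were read from 3 lists drawn up by function, with limma's test adjusted over all genes. Earlier results of these data were known when the lists were drawn up, so they are not independent of them. The background is 11.2% of 12508 genes higher and 1.41% lower for SMAD3, 14.8% of 13994 higher and 11.4% lower for H3K27ac, and 4.19% of 14605 higher and 5.28% lower for H3K9ac, and a list's share near these is no result about the list. Without centring the median gene to 0, the share of calls that were increases went from 88.9% to 99.4% for SMAD3, from 56.5% to 74.0% for H3K27ac and from 44.3% to 32.3% for H3K9ac.

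Of the paralogs, ACSS3, a further mitochondrial short-chain acyl-CoA synthetase, had no peak in any library apart from 0.317 kb of H3K9ac in vehicle replicate 2. MLXIP, the close relative of MLXIPL that also pairs with MLX, rose for SMAD3 and H3K27ac. Its SMAD3 peaks covered 0.788 and 1.53 kb with vehicle and 4.02 and 3.69 kb after TGF-beta (log2 change 1.12 ± 0.165, limma, adjusted p = 0.003826). Its H3K27ac peaks covered 11.2 and 12.8 kb with vehicle and 18.6 and 18.1 kb after TGF-beta (log2 change 0.51 ± 0.0783, limma, adjusted p = 0.004742). The groups did not overlap for either target, and both calls passed under all 14 other settings. MLXIP H3K9ac covered 6.40 and 5.66 kb with vehicle and 6.37 and 7.60 kb after TGF-beta and did not pass (limma, adjusted p = 0.0684). The common partner MLX had 2.59 and 4.94 kb of SMAD3 peaks with vehicle and 7.64 and 7.56 kb after TGF-beta, which did not pass (limma, adjusted p = 0.05705). Whether the changes at MLXIP and MLXIPL differ was not tested, since MLXIPL was chosen on its own change.

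Among 40 genes of acetyl-CoA supply and use, 38 were measured for SMAD3, of which 3 rose and 1 fell, with a median log2 change of -0.06 against -0.01 over all genes. For H3K27ac 3 rose and 4 fell of 39 measured (median -0.01, all genes -0.03), and for H3K9ac 1 rose and 3 fell of 39 (median -0.00119, all genes 0.000981). Over the other settings 0 to 5 rose and 0 to 2 fell for SMAD3, 2 to 4 and 2 to 6 for H3K27ac, and 0 to 2 and 1 to 4 for H3K9ac. For SMAD3, 1 rose without vehicle replicate 4, 5 without vehicle replicate 5 and 0 when every library had an equal number of peaks. By the same limma test 0 fell without vehicle replicate 5 or without TGF-beta replicate 4. For H3K27ac 2 fell without TGF-beta replicate 1 or 2, and for H3K9ac 1 fell without TGF-beta replicate 1. PDK4, a kinase that inhibits pyruvate dehydrogenase, fell from 1.40 and 1.44 kb of H3K27ac peaks to 0.689 and 0.454 kb (log2 change -0.93, limma, adjusted p = 0.001532). ACOT7, a cytosolic acyl-CoA thioesterase, fell from 9.82 and 9.27 kb to 5.66 and 4.63 kb of H3K27ac (log2 change -0.92, limma, adjusted p = 0.001424) and from 8.60 and 7.06 kb to 4.51 and 4.33 kb of H3K9ac (log2 change -0.66, limma, adjusted p = 0.006136). Both ACOT7 calls passed under every other setting run, as did the H3K27ac call of PDK4. Outside the rule for named genes, and picked after their values were seen, PDK3 of the same kinase family rose in H3K27ac (0.51, limma, adjusted p = 0.04045) and the pyruvate dehydrogenase phosphatase PDP1 fell (-0.33, limma, adjusted p = 0.04081).

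SLC13A5, a plasma membrane citrate carrier, rose from 0.747 and 0.925 kb to 1.77 and 1.75 kb of H3K27ac (log2 change 0.68, limma, adjusted p = 0.001681). It also rose for H3K9ac, from 1.56 and 1.32 kb to 2.14 and 2.37 kb (log2 change 0.60, limma, adjusted p = 0.003289), a call lost without centring (adjusted p = 0.05253). ACACB, which makes malonyl-CoA from acetyl-CoA at mitochondria, rose from 2.55 and 2.81 kb to 5.21 and 4.18 kb of H3K27ac (log2 change 0.62). For SMAD3, PDK2, a kinase of the PDK4 family, rose from 0.360 and 0.619 kb to 1.79 and 1.78 kb, and ACAT2, which joins acetyl-CoA units, rose from 1.63 and 2.28 kb to 4.11 and 4.63 kb. Those calls were lost under 2 and 4 other settings, the highest adjusted p being 0.4942 for PDK2 and 0.3064 for ACAT2. HADHB, of fatty acid oxidation, fell in SMAD3 (-0.63) and H3K27ac (-0.25), calls lost under 7 and 10 other settings. The H3K9ac falls of PDP2, a phosphatase that activates pyruvate dehydrogenase (-0.49), and PDK4 (-0.44) were lost under 4 and 6.

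Another list held 27 genes: partners of MLXIPL, related factors such as MLXIP, MXD1 and MNT, and carbohydrate-response targets. SMAD3 length rose at 5, MLXIP among them, and fell at 0 of 19 measured (median log2 change 0.12, all genes -0.01). At an unadjusted limma p under 0.05, 8 were higher and 1 was lower, and 1 fell without vehicle replicate 4. H3K27ac rose at 4 and fell at 3 of 22 (median -0.04, all genes -0.03), and H3K9ac rose at 1 and fell at 2 of 24 (median -0.03). Over the other settings 3 to 7 rose for SMAD3, 2 to 5 rose and 0 to 3 fell for H3K27ac, and 0 to 4 and 0 to 3 for H3K9ac. For H3K27ac, 2 rose without TGF-beta replicate 1 or 2, and 0 fell without either of them or without vehicle replicate 2. For H3K9ac, 2 rose without vehicle replicate 1, and 1, 1 and 0 fell without vehicle replicate 1, vehicle replicate 2 and TGF-beta replicate 1. SCD, the stearoyl-CoA desaturase, rose from 2.64 and 3.68 kb to 13.8 and 9.91 kb of SMAD3 (log2 change 1.45, limma, adjusted p = 0.001785). BHLHE40, a repressor of the circadian and hypoxia responses, rose from 2.40 and 2.85 kb to 10.5 and 9.38 kb of SMAD3 (log2 change 1.43, limma, adjusted p = 0.0003957). It also rose in H3K27ac (0.45) and H3K9ac (0.55), calls lost under 2 and 1 other settings. The glucose carrier SLC2A1 rose from 0.971 and 1.32 kb to 2.87 and 3.22 kb of SMAD3, a call lost when libraries had the same number of peaks (adjusted p = 0.1867). TXNIP, a widely used readout of MLXIPL and MLXIP activity that restrains glucose uptake, fell from 6.20 and 6.78 kb to 5.54 and 5.06 kb of H3K27ac (log2 change -0.35) and from 5.24 and 4.06 kb to 2.72 and 3.40 kb of H3K9ac (-0.44). Its calls were lost under 7 of 14 and 9 of 15 other settings. GPD1, glycerol-3-phosphate dehydrogenase, fell in both marks (-0.29 and -0.33), with calls lost under 7 and 9, and FGF21 fell in H3K27ac (-0.47), lost under 8 of 12. MXD1 rose in H3K27ac (0.41), lost under 1 of 14.

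Among 24 genes of sterol response and lipid synthesis, SMAD3 length rose at 1 of 23 measured and fell at 0 (median log2 change 0.05), and at an unadjusted limma p under 0.05, 4 were higher and 0 lower. That gene was MVD of the mevalonate pathway, from 1.52 and 2.13 kb to 6.28 and 6.06 kb, a call lost in the gene span alone (adjusted p = 0.7206). H3K27ac rose at 1 and fell at 5 of 24 (median -0.08, all genes -0.03), and H3K9ac rose at 1 and fell at 1 of 24 (median -0.01). Over the other settings 0 to 2 rose and 0 to 1 fell for SMAD3, 1 to 2 and 2 to 5 for H3K27ac, and 0 to 1 and 1 to 4 for H3K9ac. Without vehicle replicate 5, 2 rose and 1 fell for SMAD3. Without vehicle replicate 2, 2 rose and 2 fell for H3K27ac and 3 fell for H3K9ac. Without TGF-beta replicate 1, 3 fell for H3K27ac and 2 for H3K9ac, and without TGF-beta replicate 2, 2 fell for H3K27ac. GPAM, which starts glycerolipid synthesis, rose from 1.70 and 1.46 kb to 4.88 and 5.43 kb of H3K27ac (log2 change 1.36, limma, adjusted p = 0.0003767). It also rose in H3K9ac (0.69), a call lost without centring (adjusted p = 0.05984). LPIN1, a phosphatidate phosphatase and coactivator, fell from 11.5 and 12.8 kb to 8.16 and 7.54 kb of H3K27ac (log2 change -0.69, limma, adjusted p = 0.001425) and from 7.81 and 6.69 kb to 3.72 and 3.91 kb of H3K9ac (-0.75, limma, adjusted p = 0.001701). MBTPS1, the protease that starts SREBP cleavage, fell from 4.42 and 5.14 kb to 2.57 and 2.48 kb of H3K27ac (log2 change -0.89, limma, adjusted p = 0.0006249). The H3K27ac calls of GPAM, LPIN1 and MBTPS1 and the H3K9ac call of LPIN1 passed under every other setting run.

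**Figure D5:**
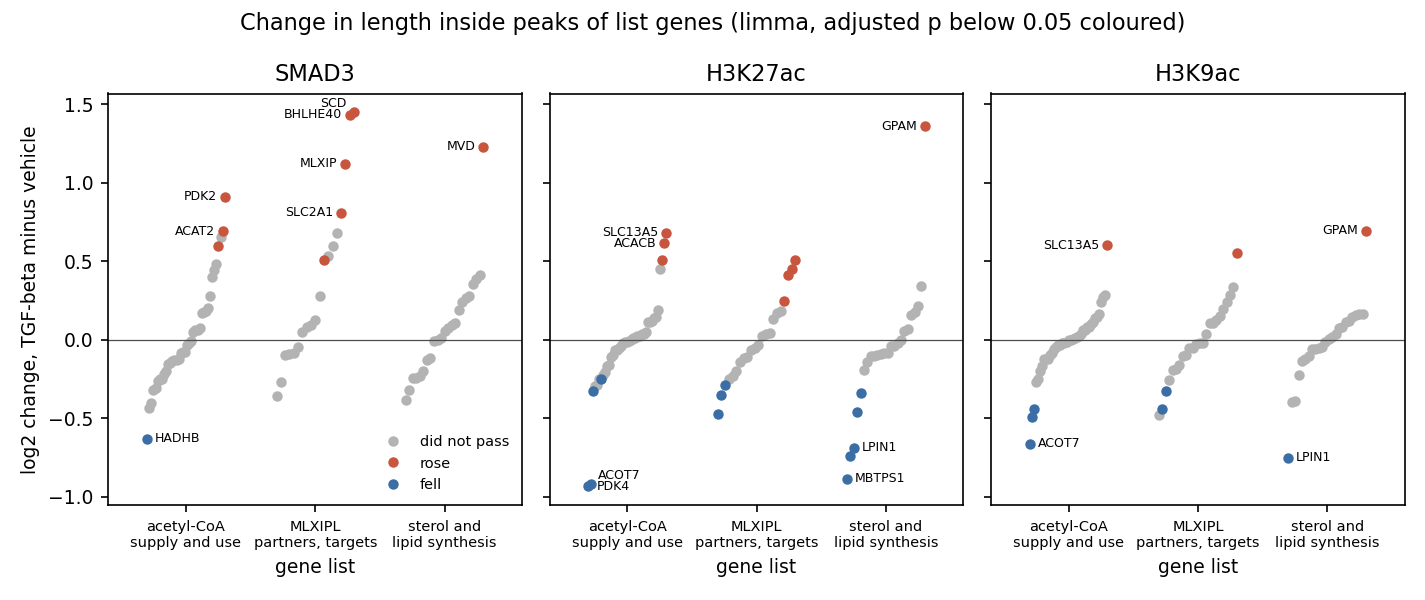
Log2 change in length inside peaks, TGF-beta minus vehicle (vertical axis), for each measured gene of the 3 lists (horizontal axis, genes sorted by change), in 3 panels for SMAD3, H3K27ac and H3K9ac. Red points rose and blue points fell at an adjusted p below 0.05 by limma, grey points did not pass, and several called genes past a change of 0.6 are named. Most points are grey in every panel, and called genes lie on both sides of 0.

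The genes whose pattern over the 12 libraries was nearest to each of the 4 were found by Euclidean distance of centred log2 lengths less the vehicle mean, among 12302 candidates away from their windows. Nearest to ACSS1 were SECTM1, KLF15 and BCAM, at distances of 0.977, 1.28 and 1.31 against a median of 3.43. SECTM1, the nearest, had log2 changes of -1.895 for SMAD3, -0.85 for H3K27ac and -0.47 for H3K9ac. KLF15, a transcription factor of fasting metabolism, had log2 changes of -1.18 for SMAD3, -1.15 for H3K27ac and -0.34 for H3K9ac. Nearest to MLXIPL were PPL, CITED2 and SLCO4A1, at 0.549, 0.607 and 0.824 against a median of 2.55. PPL, the nearest, had changes of -1.53, -0.29 and -0.49 in the same order of targets. CITED2, a partner of CBP and p300, had changes of -1.60, -0.26 and -0.30. Nearest to ACSS2 were CCNJL, THRB and TF, at 0.197, 0.218 and 0.266 against a median of 1.15, of which THRB encodes a thyroid hormone receptor. Nearest to ACLY were ZNF429, PLA2G15 and DCAF4L1, at 0.152, 0.158 and 0.168 against a median of 0.687. The distances describe likeness in these libraries only.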

How the data were processed

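H69 cells were profiled by ChIP-seq in 12 libraries with a peak file each, and 4 input samples were not used here. BWA, Picard, MACS2 and bedtools, and the build hg38, are named per the submitters' processing notes. No source used here gives their versions, the calling threshold or the control. In each file the authors deposited 1 score per peak, a −log10 value, without stating whether of p or of q. Scores ranked peaks within a list only.

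Peak length was summed over each RefSeq GRCh38.p14 gene plus 10 kb at either end. From log2 of this length plus 500 bp, each library's median was subtracted, taken over genes with peaks in the 4 libraries of the target. Genes averaging 500 bp or more were tested per target with limma 3.58.1 in R 4.3.3 (treatment only, Benjamini-Hochberg at 0.05), and the script was tested on simulated data. With 2 libraries against 2, an exact permutation test cannot go below 0.333. Peaks of a target overlapping by 1 bp were merged. A region in both libraries of a treatment and neither of the other was lost or gained. Other steps used Python 3.11.15, pandas 2.3.3 and numpy 2.4.6.

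The 4 genes, the lists and the settings were chosen with earlier results of these data known. Named list genes were, per list and target, up to 4 with the largest change past the threshold, the paralogs ACSS3, MLXIP and MLX, genes sharing a window with the 4 genes, the 3 nearest in pattern, and TGFBI, PMEPA1 and SMAD7, and some genes that the rule names are not reported here. For SMAD3, PMEPA1 changed by 3.57 (limma, adjusted p = 0.0001387) and SMAD7 by 1.62 (limma, adjusted p = 0.0006826). Alternatives were smaller windows, other pseudocounts, no filter, no centring, equal peak numbers, a score of at least 5, limma's trend and robust options, a replicate block and leaving out each library.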

Additional observations from a re-analysis of the deposited data

How the results depend on the processing

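The decreases at ACSS1 and MLXIPL kept their sign in all 3 targets, and that of ACSS2 in both marks, under each of the 11 settings that gave another log2 change, while the filter, the limma options and the block leave that value as it is. The SMAD3 change of ACSS2 turned to 0.0231 in the gene span alone and 0.0199 without centring, and that of ACLY to 0.0203 without centring. Without centring every SMAD3 change is higher by the median shift of 0.3061, and the gene span alone leaves out the SMAD3 region upstream of ACSS2. No cause beyond these settings was tested. Of SMAD3, 1579 genes were called, against 868 in the gene span alone, where 7774 genes were tested, and 715 with the same number of peaks. H3K9ac had 1383 calls and 557 without centring. H3K27ac had 3670 calls. Leaving out each library in turn gave 792 to 1744 calls for SMAD3, 1980 to 3142 for H3K27ac and 730 to 1402 for H3K9ac. The lowest counts came without vehicle replicate 4 (792), TGF-beta replicate 2 (1980) and TGF-beta replicate 1 (730). The count also moved by over 1.5 times without TGF-beta replicate 4 of SMAD3 (959) and TGF-beta replicate 1 of H3K27ac (2200). An arm left with 1 library is assumed to vary like the other.

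With the replicate number as a block there were 1409, 3685 and 1525 calls for SMAD3, H3K27ac and H3K9ac. Same-numbered libraries did not deviate together (correlations -0.0689, -0.0163 and -0.137), so the replicate block shows no pairing. With the H3K9ac numbers crossed, a setting chosen after seeing the data, 1433 genes were called. Depth is unknown, so a short or absent peak may be undetected signal.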
